A study of Rattus norvegicus with 50 samples.

Results

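The genes described here are 32 genes of sterol and fatty acid synthesis that are known targets or regulators of the sterol regulatory element-binding proteins (SREBP). They were chosen by name, and 31 of them had a transcript cluster with their symbol among the 15049 clusters with a symbol, 1 cluster each. *Hmgcs1* was not analysed here. The 31 were 5 regulators, 7 enzymes from acetyl-CoA units to squalene, 10 enzymes from squalene to cholesterol, 1 sterol carrier and 8 genes of fatty acid synthesis.

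Levels were measured in the hippocampus and in peripheral blood mononuclear cells (PBMC) of 25 male Wistar rats aged 3.5 months, with 1 Affymetrix Rat Clariom S array per rat and tissue. Fat gave 10% of the calories eaten by NW rats (labelled CTRL, n = 8) and 60% of those eaten over 11 weeks by MONW rats (labelled HF, n = 8), in isocaloric amounts. MONW-Lep rats (labelled LEP, n = 9) were fed like MONW rats and had received oral recombinant murine leptin in Captisol as sucklings, on days 1 to 20, while the pups of the other groups had received Captisol alone. The pups came from a few shared litters, and which rats shared one was not given in the sources used here, so the p-values measure the spread between rats without it.

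SREBP are transcription factors held in the endoplasmic reticulum by the escort protein Scap and the anchor proteins Insig. When sterols run low, Scap carries SREBP to the Golgi, where proteases release the part that enters the nucleus and raises transcription of the genes of cholesterol and unsaturated fatty acid synthesis. The brain makes its own cholesterol, since lipoproteins of the blood do not cross the blood-brain barrier, and most of it sits in myelin. Blood leukocytes can take cholesterol up from lipoproteins.

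The values are log2 values from RMA, a method that subtracts background, normalizes across arrays and combines the probes of a cluster into 1 value. They hold no counts, so the number of arrays limits the precision. Array medians ran from 6.87 to 6.90 in the hippocampus and from 6.66 to 6.75 in PBMC. The 95th percentile of 1153 negative control clusters on each array served as a background level, and it ran from 7.96 to 8.58 in the hippocampus and from 8.59 to 9.51 in PBMC. Above it on every array were 12 of the 31 genes in the hippocampus (18.4% of all genes) and 1 of the 31, *Insig1*, in PBMC (7.72% of all genes). On no array above it were 11 in the hippocampus and 27 in PBMC, so that most of these genes had levels near background in blood. Markers matched the labels: the 8 markers of hippocampal neurons had mean log2 values of at least 10.35 on NW hippocampal arrays and at most 7.03 on NW PBMC arrays, and the 6 of T cells at least 9.98 on NW PBMC and at most 5.70 on NW hippocampal arrays. Hippocampal arrays of every group varied widely in the mean of 8 markers of the choroid plexus. It ran from 6.19 to 10.06 in NW, 5.83 to 10.01 in MONW and 6.15 to 9.64 in MONW-Lep arrays. MONW replicate 7 of the hippocampus stood apart, correlating with the rest at a median of 0.978 over genes, a mean of 9.15 for 6 markers of the striatum (at most 6.83 on the other hippocampal arrays), 10.91 for 12 markers of myelin and 9.37 for the 8 neuronal markers. Given without MONW replicate 7 as well are the difference of *Stard4* between MONW and NW rats and its myelin slope. The same holds for the counts by direction, of genes called between groups and of related genes of fatty acid handling. Other results on MONW arrays of the hippocampus include that replicate. Among them are the marker levels and counts, the myelin-adjusted difference of *Stard4*, differences of other single genes, and spreads and correlations within groups.

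Of the 31 genes, 24 had a window in the RefSeq promoters of GRCr8 (250 bases before to 50 bases after a transcript's start; 25 windows, since *Srebf1* had more than 1). The letters TCACNCCAC, a form of the sterol regulatory element, were found on either strand in 0 of the 25 windows (1.12% of 33469 promoters of all genes), CACGTG, the E-box that SREBP can also bind, in 3 (those of *Insig1*, *Sc5d* and *Scap*; 6.42% of all), CCAAT, bound by NF-Y, in 19 (76%, against 37.5% of all), and GGGCGG, bound by Sp1, in 21 (84%, against 33.1% of all). NF-Y and Sp1 are known partners of SREBP, and a match of letters is no proof of a site. The genes with the highest and lowest difference between hippocampus and PBMC that have a window are shown 5′ to 3′, only for the bases before the gene as RefSeq annotates it, with matches in capitals. *Fads1* (chr1:216252442-216252604, plus strand) holds GGGCGG on the opposite strand and CCAAT, *Insig1* (chr4:8057813-8058019, minus strand) holds GGGCGG and CCAAT on the opposite strand and CACGTG, *Ebp* (chrX:16971212-16971371, plus strand) holds CCAAT on the opposite strand, and *Fads2* (chr1:216172191-216172283, minus strand) holds none in the stretch shown. No 2 matches share a base.
Fads2: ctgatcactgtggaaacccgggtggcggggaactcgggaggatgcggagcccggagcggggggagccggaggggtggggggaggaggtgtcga
Fads1: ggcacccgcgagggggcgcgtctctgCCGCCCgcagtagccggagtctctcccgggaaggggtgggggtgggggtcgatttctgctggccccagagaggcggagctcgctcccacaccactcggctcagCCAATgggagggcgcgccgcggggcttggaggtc
Insig1: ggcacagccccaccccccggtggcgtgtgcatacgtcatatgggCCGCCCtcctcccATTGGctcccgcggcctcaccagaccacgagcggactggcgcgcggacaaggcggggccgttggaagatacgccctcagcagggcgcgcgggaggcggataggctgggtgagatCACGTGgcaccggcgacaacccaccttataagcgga
Ebp: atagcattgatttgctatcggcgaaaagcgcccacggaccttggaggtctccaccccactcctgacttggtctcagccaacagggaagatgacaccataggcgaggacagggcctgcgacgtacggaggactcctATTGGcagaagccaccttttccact

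In NW rats most of these genes had higher values in the hippocampus than in PBMC, among them the desaturases *Fads2* and *Fads1*, the elongase *Elovl6* and the sterol enzymes *Cyp51* and *Sc5d*, all above the negative controls on every hippocampal array and on no PBMC array. The anchor *Insig1* was higher in PBMC, and the values of the sterol carrier *Stard4* and the isomerase *Ebp* were higher there too, but below the negative controls in both tissues. On no NW array of either tissue were 13 of the 31 genes above the negative controls. That level differed between the tissues, so the differences of these 13 compare signals within background and are no measure of expression. At an adjusted p under 0.05 from limma, 26 of 31 genes differed between the tissues, against 72.1% of all 15049 genes. Higher in the hippocampus were 23 of 31 (33.7% of all genes), and higher in PBMC 3 of 31 (38.4% of all genes). The median log2 difference was 0.50 over the 31 genes and -0.08 over all genes. The ranges of the NW arrays did not overlap between the tissues for 18 of the 31, 17 higher in the hippocampus and *Stard4* higher in PBMC (46.4% of all genes). The tissues did not have equal array medians, and quantile normalization over all 50 arrays left 26 genes called, 22 higher in the hippocampus and 4 in PBMC, with a median of -0.11 over all genes. It ended the call of *Pmvk* (log2 difference 0.02, adjusted p = 0.793 from limma) and made *Mvk* lower in the hippocampus (-0.17, adjusted p = 0.0214 from limma). A difference between tissues can come from the number of cells of a type or from the RNA per cell, and bulk samples cannot tell these apart.

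**Figure D1:**
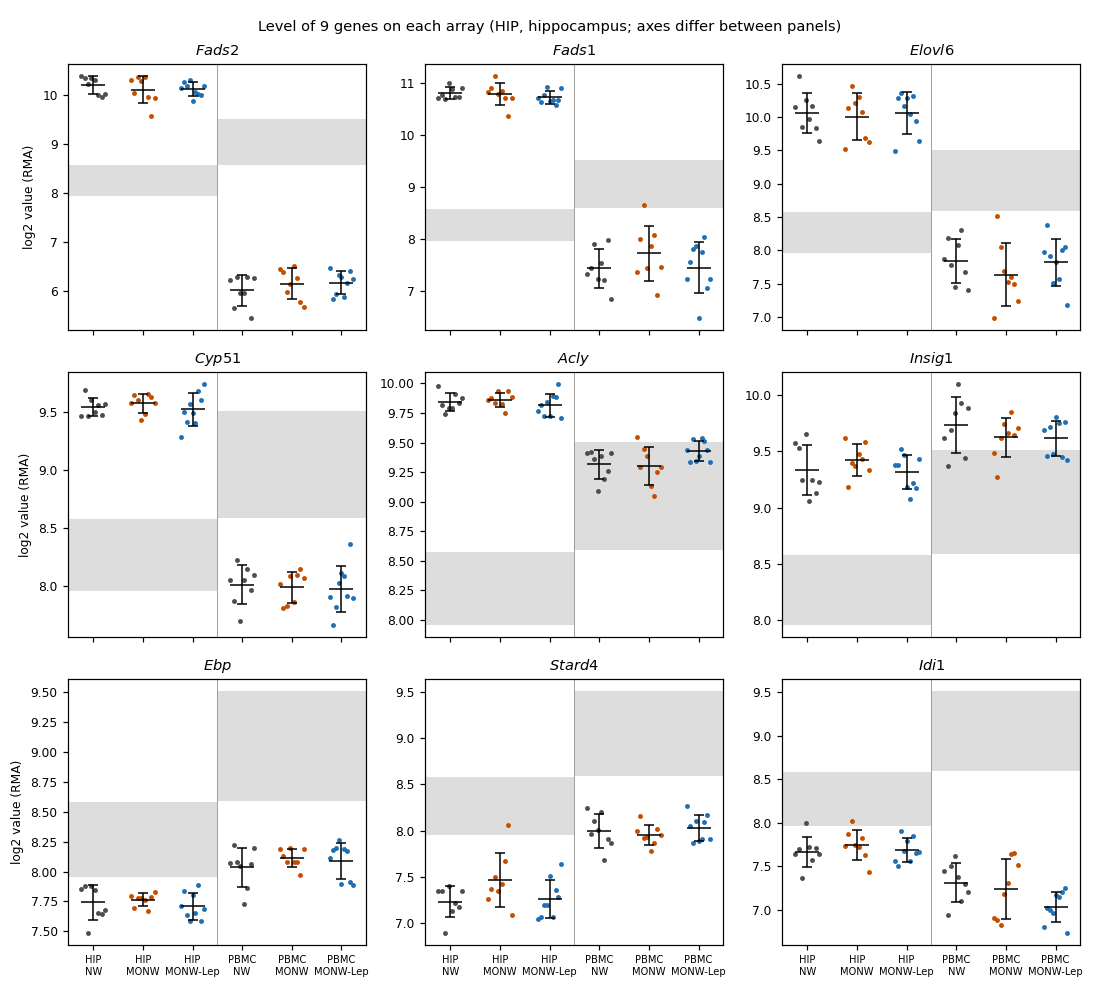
Log2 values of 9 genes on each array, by tissue and group (1 point per array; black bars, mean and SD; grey band, range over arrays of the 95th percentile of the negative controls in that tissue). *Fads2*, *Fads1*, *Elovl6* and *Cyp51* sit above the grey band in the hippocampus and below it in PBMC, where only the highest array of *Fads1* reaches its lower edge, *Stard4* and *Ebp*, above the negative controls on no array, have higher values in PBMC, and the 3 groups of a tissue overlap for every gene.

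Among the regulators, *Insig2*, an anchor of Scap that is less dependent on SREBP than *Insig1*, had higher values in the hippocampus of NW rats (log2 difference 1.00, standard error 0.08, adjusted p = 2.4e-16 from limma), and so did *Scap*, the escort (log2 difference 0.31, standard error 0.09, adjusted p = 0.00127 from limma). On NW arrays *Insig2* was above the negative controls on 4 of 8 in the hippocampus and 0 of 8 in PBMC. *Scap* was above them on 1 of 8 and 0 of 8, so both differences compare signals near or within background. Hippocampal *Insig2* ran from 8.16 to 8.55 (median 8.32) in NW, 8.19 to 8.57 (median 8.26) in MONW and 7.98 to 8.58 (median 8.27) in MONW-Lep arrays. In PBMC it ran from 7.12 to 7.60 (median 7.33) in NW, 7.04 to 7.49 (median 7.25) in MONW and 7.24 to 7.61 (median 7.40) in MONW-Lep arrays. The tissues did not overlap in any group. *Insig1*, itself induced by SREBP and the SREBP target by which the pathway restrains itself, was the one gene above the negative controls on every array of both tissues. It ran from 9.06 to 9.65 (median 9.25) in NW, 9.18 to 9.62 (median 9.42) in MONW and 9.08 to 9.52 (median 9.37) in MONW-Lep arrays of the hippocampus. In PBMC the values of *Insig1* were 9.37 to 10.10 (median 9.76) in NW, 9.27 to 9.85 (median 9.66) in MONW and 9.42 to 9.81 (median 9.69) in MONW-Lep arrays. The ranges of the tissues overlapped, and the mean in PBMC of NW rats was 1.32-fold higher (log2 difference -0.40, standard error 0.09, adjusted p = 0.000159 from limma). *Srebf1* and *Srebf2*, which encode the transcription factors themselves, had log2 differences of -0.09 (adjusted p = 0.164 from limma, 95% interval -0.20 to 0.03) and 0.11 (adjusted p = 0.104 from limma, 95% interval -0.01 to 0.24) in NW rats. On NW arrays *Srebf1* was above the negative controls on 1 of 8 in the hippocampus and 0 of 8 in PBMC, and *Srebf2* on 8 of 8 and 3 of 8.

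Of the enzymes that lead from acetyl-CoA to squalene 5 of 7 had higher values in the hippocampus, with differences of at most 0.39 on the log2 scale except for *Fdft1*. *Fdft1*, squalene synthase and the first step that leads to sterols alone, was above the negative controls on all hippocampal and on no PBMC arrays (log2 difference 1.20, standard error 0.09, adjusted p = 8.2e-18 from limma). *Acat2*, which joins acetyl-CoA units, had higher values in the hippocampus of NW rats (log2 difference 0.39, standard error 0.08, adjusted p = 3.05e-05 from limma). *Idi1*, the isomerase of isopentenyl diphosphate, also had higher values there (log2 difference 0.36, standard error 0.11, adjusted p = 0.00224 from limma), as did *Fdps*, farnesyl diphosphate synthase (log2 difference 0.31, standard error 0.08, adjusted p = 0.000378 from limma). On NW hippocampal arrays *Acat2* was above the negative controls on 2 of 8 and *Fdps* on 5 of 8, and both on no NW array of PBMC. *Idi1* and the kinase *Pmvk* were above the negative controls on no NW array, and *Pmvk* passed with the values as deposited (log2 difference 0.17, standard error 0.07, adjusted p = 0.0389 from limma). *Mvk*, mevalonate kinase (-0.05, adjusted p = 0.443 from limma), and *Mvd*, mevalonate diphosphate decarboxylase (0.02, adjusted p = 0.857 from limma), did not, and neither was above the negative controls on any NW array of either tissue.

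From squalene to cholesterol, 9 of the 10 enzymes had higher values in the hippocampus of NW rats and *Ebp* had lower ones. *Msmo1*, a methyl sterol oxidase, ran from 10.19 to 10.49 (median 10.33) in NW, 10.27 to 10.56 (median 10.38) in MONW and 10.29 to 10.46 (median 10.33) in MONW-Lep arrays of the hippocampus and from 7.78 to 8.73 (median 8.42) in NW, 7.97 to 8.60 (median 8.17) in MONW and 7.72 to 8.73 (median 8.40) in MONW-Lep arrays of PBMC. The tissues did not overlap in any group, and in NW rats 8 of 8 arrays were above the negative controls in the hippocampus, against 1 of 8 in PBMC. Where no PBMC array was above them, *Msmo1* was at least 2.76-fold higher in the hippocampus of MONW and at least 2.68-fold of MONW-Lep rats, against the background level of each PBMC array. For *Sqle*, squalene epoxidase and a rate-limiting step, hippocampal values were 8.72 to 8.99 (median 8.91) in NW, 8.75 to 9.07 (median 8.83) in MONW and 8.59 to 9.09 (median 8.92) in MONW-Lep arrays. PBMC values of *Sqle* were 6.62 to 7.26 (median 6.92) in NW, 6.67 to 7.06 (median 6.88) in MONW and 6.23 to 7.10 (median 6.78) in MONW-Lep arrays. Hippocampal arrays were above and PBMC arrays below the negative controls without exception for *Sqle*, *Cyp51*, the lanosterol demethylase, and *Sc5d*, the lathosterol desaturase. The log2 differences in NW rats were 1.96 for *Sqle*, 1.52 for *Cyp51* and 2.00 for *Sc5d* (adjusted p = 9.79e-27, 5.6e-25 and 2.77e-21 from limma). Set against the background level of each PBMC array, *Cyp51* was at least 1.36-fold and *Sc5d* at least 1.52-fold higher in the hippocampus, whereas for *Sqle* that background was above the hippocampal mean and no fold is given.

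The other sterol enzymes that differed were above the negative controls on no NW array of either tissue, so their differences are those of signals within background. *Hsd17b7*, a sterol reductase, ran from 7.58 to 8.11 (median 7.80) in NW, 7.69 to 8.13 (median 7.96) in MONW and 7.63 to 8.07 (median 7.72) in MONW-Lep arrays of the hippocampus. In PBMC *Hsd17b7* was at 6.43 to 6.97 (median 6.75) in NW, 6.47 to 6.91 (median 6.77) in MONW and 6.66 to 6.92 (median 6.79) in MONW-Lep arrays. Its ranges in the tissues did not overlap in any group (log2 difference 1.08, standard error 0.08, adjusted p = 6.49e-18 from limma). *Dhcr7*, the last step of one branch (0.80), *Tm7sf2*, a C14 sterol reductase (0.50), *Nsdhl*, a sterol dehydrogenase (0.49), and *Lss*, lanosterol synthase (0.46), had higher values in the hippocampus with adjusted p values of 2.1e-10, 6.78e-08, 2.52e-06 and 2.13e-08 from limma. *Ebp*, the sterol isomerase, had hippocampal values of 7.49 to 7.88 (median 7.76) in NW, 7.67 to 7.83 (median 7.78) in MONW and 7.58 to 7.89 (median 7.69) in MONW-Lep arrays. Its PBMC values were 7.73 to 8.22 (median 8.06) in NW, 7.97 to 8.20 (median 8.10) in MONW and 7.89 to 8.26 (median 8.17) in MONW-Lep arrays. The tissues overlapped in NW rats alone, and the values were lower in the hippocampus in every group (log2 difference -0.29 in NW, -0.35 in MONW and -0.38 in MONW-Lep rats, adjusted p = 0.000104, 5.94e-06 and 3.72e-07 from limma).

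*Stard4*, a carrier that moves cholesterol between membranes, was above the negative controls on no array of either tissue, so its values too compare signals within background. Its hippocampal values were 6.90 to 7.40 (median 7.28) in NW, 7.09 to 8.06 (median 7.39) in MONW and 7.04 to 7.64 (median 7.19) in MONW-Lep arrays. PBMC arrays gave 7.68 to 8.24 (median 7.98) in NW, 7.78 to 8.16 (median 7.95) in MONW and 7.87 to 8.27 (median 8.05) in MONW-Lep arrays. The tissues overlapped only in MONW rats, in which 1 hippocampal array, replicate 7, reached the PBMC range. The log2 difference between the tissues was -0.77 in NW, -0.49 in MONW and -0.77 in MONW-Lep rats (adjusted p = 5.6e-10, 1.21e-05 and 9.13e-11 from limma).

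In fatty acid synthesis, 7 of 8 genes had higher values in the hippocampus of NW rats. *Fads2* and *Fads1*, the delta-6 and delta-5 desaturases that make polyunsaturated fatty acids such as arachidonic and docosahexaenoic acid, are neighbours on chromosome 1 of GRCr8. *Fads2* ran from 9.96 to 10.39 (median 10.28) in NW, 9.59 to 10.38 (median 10.18) in MONW and 9.89 to 10.31 (median 10.15) in MONW-Lep arrays of the hippocampus and from 5.47 to 6.30 (median 6.10) in NW, 5.69 to 6.52 (median 6.22) in MONW and 5.86 to 6.49 (median 6.26) in MONW-Lep arrays of PBMC. For *Fads1* the hippocampal values were 10.69 to 11.00 (median 10.75) in NW, 10.37 to 11.13 (median 10.81) in MONW and 10.58 to 10.92 (median 10.67) in MONW-Lep arrays, and the PBMC values 6.85 to 7.99 (median 7.39) in NW, 6.93 to 8.66 (median 7.66) in MONW and 6.49 to 8.04 (median 7.56) in MONW-Lep arrays. The lowest hippocampal array lay above the highest PBMC array for both genes in every group. In NW rats the log2 difference was 4.18 for *Fads2* and 3.36 for *Fads1* (adjusted p = 8.23e-35 and 1.8e-24 from limma), which against the PBMC background amounts to at least 2.16-fold and at least 3.25-fold, and gives the genes no order among themselves. *Elovl6*, which lengthens palmitate, was at 9.63 to 10.61 (median 10.06) in NW, 9.52 to 10.47 (median 10.11) in MONW and 9.49 to 10.36 (median 10.16) in MONW-Lep arrays of the hippocampus. PBMC values of *Elovl6* ran from 7.41 to 8.31 (median 7.82) in NW, 6.99 to 8.51 (median 7.56) in MONW and 7.18 to 8.37 (median 7.91) in MONW-Lep arrays. Its tissues did not overlap either, and the difference was at least 1.95-fold in NW rats (log2 difference 2.22, standard error 0.17, adjusted p = 6.01e-17 from limma).

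*Acly*, which makes acetyl-CoA from citrate, was measured above the negative controls on 6 of 8 NW arrays of PBMC and on all of the hippocampus. It ran from 9.74 to 9.97 (median 9.83) in NW, 9.75 to 9.94 (median 9.87) in MONW and 9.71 to 10.00 (median 9.82) in MONW-Lep arrays of the hippocampus. In blood *Acly* ran from 9.09 to 9.42 (median 9.37) in NW, 9.04 to 9.55 (median 9.29) in MONW and 9.33 to 9.54 (median 9.44) in MONW-Lep arrays. The ranges of the tissues did not overlap in any group, and the hippocampal mean was 1.44-fold higher in NW rats (log2 difference 0.53, standard error 0.06, adjusted p = 1.99e-11 from limma). *Fasn*, fatty acid synthase (0.82), *Acaca*, acetyl-CoA carboxylase (0.77), and *Acss2*, acetyl-CoA synthetase (0.98), had higher values in the hippocampus by log2 differences under 1 (adjusted p = 4.15e-12, 5e-13 and 1.44e-11 from limma). *Fasn* was above the negative controls on all hippocampal and on no PBMC arrays, but the PBMC background of NW rats lay above its hippocampal mean, so no fold is given. *Acss2* was above them on 2 of 8 NW arrays of the hippocampus and *Acaca* on none, and neither on any PBMC array. The differences of these 2 genes compare signals near or within background. *Scd*, the delta-9 desaturase, had a log2 difference of -0.11 (95% interval -0.34 to 0.11, adjusted p = 0.379 from limma) and was not above the negative controls on any array.

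**Figure D2:**
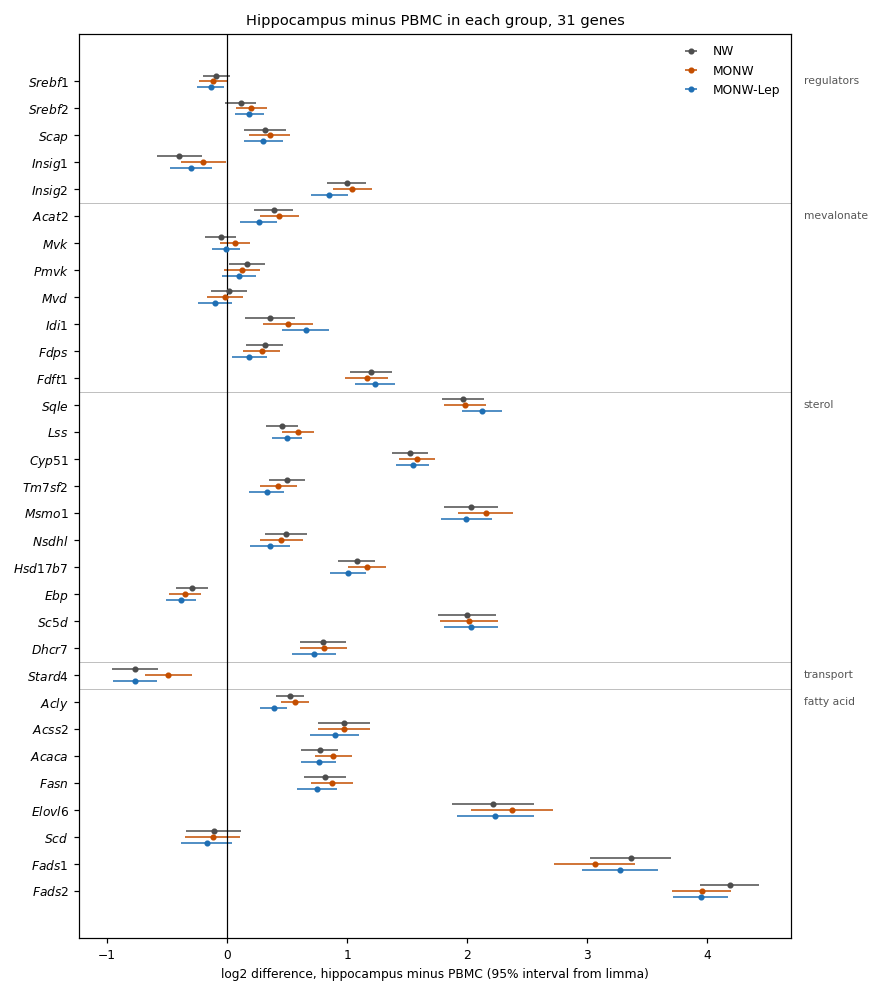
Log2 difference of the hippocampus minus PBMC for 31 genes, ordered by role, in each of the 3 groups (points, difference of group means; bars, 95% intervals from limma). The differences run from -0.77 for *Stard4* to 4.18 for *Fads2* in NW rats, and for each gene the intervals of the groups overlap.

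The same pattern was measured in both other groups. In MONW rats 25 of 31 genes differed between the tissues at an adjusted p under 0.05 from limma (72.8% of all genes), 23 higher in the hippocampus (33.4% of all genes) and 2 in PBMC (39.4% of all genes). In MONW-Lep rats it was 27 of 31 (74.6% of all genes), 23 higher in the hippocampus (33.7% of all genes) and 4 in PBMC (41% of all genes). Ranges that did not overlap between the tissues were measured for 18 of 31 genes in MONW (46.4% of all genes) and 18 of 31 in MONW-Lep rats (47.3% of all genes). *Insig1* was not among the called genes of MONW rats (-0.20, adjusted p = 0.0524 from limma). *Srebf2* was higher in the hippocampus of MONW (0.20, adjusted p = 0.0048 from limma) and MONW-Lep rats (0.19, adjusted p = 0.00542 from limma). *Srebf1* had higher values in PBMC of MONW-Lep rats (-0.14, adjusted p = 0.0207 from limma). There it was above the negative controls on 0 of 9 PBMC and 1 of 9 hippocampal arrays, so this difference compares signals near or within background.

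Within the hippocampus the groups differed little in these genes. At an unadjusted p under 0.05 from limma, 1 of 31 genes was called in MONW versus NW (3.08% of all genes), 0 of 31 in MONW-Lep versus NW (2.34% of all genes) and 0 of 31 in MONW-Lep versus MONW (3.1% of all genes). Of the 15049 genes 0 passed after adjustment in each, with 463, 352 and 466 at the unadjusted threshold. All 3 comparisons share arrays. The 95% interval of every one of the 31 differences lay within 0.5 of 0 on the log2 scale in each comparison. Of these genes 11 were above the negative controls on no hippocampal array and 8 on only some. For them the interval describes a signal within or near background and does not bound a change in expression. The ranges of the groups overlapped for all 31 genes in all 3 comparisons (0.00664%, 0.00664% and 0% of all genes did not overlap).

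The gene called in the hippocampus was *Stard4*, higher in MONW than in NW rats (log2 difference 0.23, 95% interval 0.01 to 0.46; unadjusted p = 0.0404 and adjusted p = 0.999 from limma; exact permutation p = 0.0631). Of the 8 MONW arrays, 4 lay above the highest NW array, and replicate 7 was the highest at 8.06. MONW-Lep rats were at a lower mean than MONW rats, without passing the threshold (log2 difference -0.20, 95% interval -0.42 to 0.01; unadjusted p = 0.0636 and adjusted p = 0.999 from limma; exact permutation p = 0.115), and MONW-Lep and NW rats differed by 0.03 (95% interval -0.19 to 0.25). Without MONW replicate 7 the difference of MONW from NW was 0.15 (unadjusted p = 0.127 from limma), and without NW replicate 3, 5, 6 or 7 or MONW replicate 3 or 6 it ran from 0.19 to 0.23 (unadjusted p from 0.0536 to 0.0992 from limma). The 12 myelin markers too had their highest mean on MONW arrays: on average they stood at 10.26 ± 0.29 (SD, n = 8) on MONW arrays, against 10.10 ± 0.15 (SD, n = 8) on NW arrays and 10.10 ± 0.07 (SD, n = 9) on MONW-Lep arrays. The medians were 10.19, 10.12 and 10.10 in turn, and MONW replicate 7 stood at 10.91. With the myelin level as a term in the fit, and that replicate included, the difference of *Stard4* was 0.10 (unadjusted p = 0.297 from limma). Across the 25 hippocampal arrays, with groups kept as terms, *Stard4* had a slope on the myelin level (slope 0.82, standard error 0.19, adjusted p = 0.0137 from limma), the only 1 of the 31 genes at an adjusted p under 0.05 (3.33% of all genes), and without MONW replicate 7 its slope did not pass (slope 0.66, standard error 0.31, adjusted p = 0.358 from limma; 0.253% of all genes). The part of myelin in the difference of *Stard4* was not tested beyond this.

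**Figure D3:**
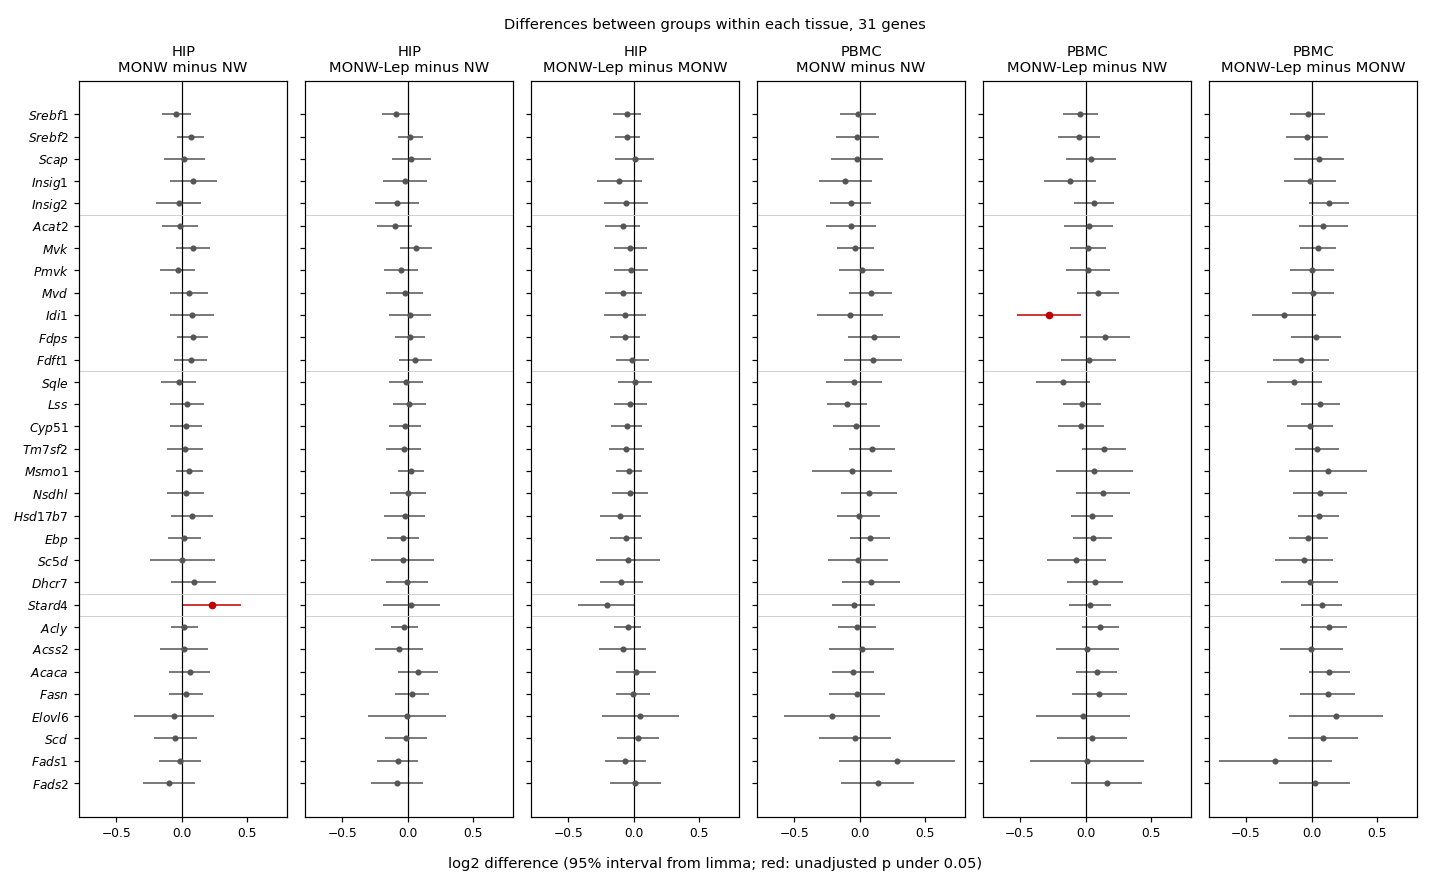
Log2 differences between the groups within each tissue for 31 genes (points; bars, 95% intervals from limma; red, unadjusted p under 0.05). Red marks 2 differences, hippocampal *Stard4* of MONW versus NW and *Idi1* in PBMC of MONW-Lep versus NW.

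For the other hippocampal genes with the smallest p the values of the groups lay closer together. Of them *Mvk* and *Hsd17b7* were above the negative controls on no hippocampal array, and *Srebf1*, *Acat2* and *Fdps* on only some. The differences of these genes compare signals within or near background. *Fdps* ran from 8.18 to 8.48 (median 8.39) in NW, 8.37 to 8.64 (median 8.44) in MONW and 8.21 to 8.53 (median 8.40) in MONW-Lep arrays, and the difference of MONW from NW was 0.09 (95% interval -0.03 to 0.20; exact permutation p = 0.0533). *Mvk* ran from 7.39 to 7.69 (median 7.49) in NW, 7.37 to 7.76 (median 7.62) in MONW and 7.37 to 7.74 (median 7.58) in MONW-Lep arrays, with 0.09 for MONW (95% interval -0.04 to 0.22; exact permutation p = 0.132) and 0.06 for MONW-Lep versus NW. Both genes overlapped between all groups. *Srebf1*, at 8.10 to 8.36 (median 8.20) in NW, 8.07 to 8.33 (median 8.17) in MONW and 8.00 to 8.26 (median 8.11) in MONW-Lep arrays, was at -0.09 in MONW-Lep versus NW rats (95% interval -0.20 to 0.02; exact permutation p = 0.0678), with 4 of 9 MONW-Lep arrays below the lowest NW array. *Acat2*, at 7.92 to 8.28 (median 8.13) in NW, 7.87 to 8.40 (median 8.14) in MONW and 7.93 to 8.11 (median 8.06) in MONW-Lep arrays, was at -0.10 (95% interval -0.23 to 0.03; exact permutation p = 0.0605). In MONW-Lep versus MONW rats *Hsd17b7* was at -0.10 (exact permutation p = 0.189) and *Insig1* at -0.11 (exact permutation p = 0.144). None of these passed the threshold. MONW replicate 7, which is included here, was the highest MONW array of *Fdps*, *Mvk* and *Hsd17b7*.

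As a group, 22 of the 31 genes had a mean above that of NW in MONW rats, with a median log2 difference of 0.03, beside 7504 of 15049 genes and a median of 0.00. By role these were 14 of the 17 enzymes of sterol synthesis, 3 of 5 regulators, 4 of 8 genes of fatty acid synthesis and *Stard4*. Of the 17 sterol enzymes only *Fdft1*, *Sqle*, *Cyp51*, *Msmo1* and *Sc5d* were above the negative controls on every hippocampal array. Most signs counted for these enzymes are thus those of signals within or near background. Between the groups fed the 60% fat diet, 6 of 31 were above 0 in MONW-Lep versus MONW rats, 1 of the 17 sterol enzymes among them (median of the 31 genes -0.05; 7258 of all genes, median 0.00). In MONW-Lep versus NW rats it was 12 of 31, with a median of -0.01 (7174 of all genes). These comparisons share the MONW or the NW arrays, so the opposite signs are not separate results. Of the 12 myelin markers 12 were above 0 in MONW versus NW (median 0.17) and 0 in MONW-Lep versus MONW rats (median -0.14), and their part in these counts was not tested. Of the 6 striatal markers 6 were above 0 in MONW versus NW (median 0.28) and 0 in MONW-Lep versus MONW rats (median -0.26). In the same 2 comparisons 1 and 7 of 7 endothelial markers were above 0, the latter with 3 at an unadjusted p under 0.05 from limma. For the choroid plexus it was 0 and 6 of 8, for astrocytes 3 and 2 of 7 and for hippocampal neurons 2 and 4 of 8. The part of these cells was not tested either. All these marker counts include MONW replicate 7, which had the highest myelin and striatal levels. Without that replicate the counts of the genes described here were 23 of 31 for MONW versus NW and 7 of 31 for MONW-Lep versus MONW.

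In PBMC, 0 of 31 genes were called at an unadjusted p under 0.05 from limma in MONW versus NW (3% of all genes), 1 of 31 in MONW-Lep versus NW (4.75% of all genes) and 0 of 31 in MONW-Lep versus MONW (2.45% of all genes). At the adjusted threshold 0 of the 15049 genes passed in each, with 452, 715 and 369 at the unadjusted one. The differences from NW ran from -0.21 (*Elovl6*) to 0.29 (*Fads1*) in MONW and from -0.28 (*Idi1*) to 0.16 (*Fads2*) in MONW-Lep rats. The intervals were wider than in the hippocampus, with a median width of 0.20 on either side in MONW versus NW, against 0.14 in the hippocampus. The ranges of the groups overlapped for all 31 genes in each comparison (0.0133%, 0.00664% and 0.00664% of all genes did not overlap).

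By direction, 11 of the 31 genes were above NW in MONW rats (median log2 difference -0.02), beside 7785 of all genes, and 22 of 31 in MONW-Lep rats (median 0.03), beside 7949 of all genes. The NW arrays are shared by both counts. Of the 31 genes 27 were above the negative controls on no PBMC array, so most of these signs are those of signals within background. Of the 5 monocyte markers 0 were above 0 in MONW (median -0.12) and 0 in MONW-Lep rats (median -0.21), where 2 were lower at an unadjusted p under 0.05 from limma. Of the 6 platelet markers 6 were above 0 in MONW (median 0.37) and 1 in MONW-Lep rats (median -0.07). Of the other markers, 6 of 6 for T cells, 2 of 2 for B cells, 0 of 5 for NK cells, 5 of 5 for neutrophils and 1 of 5 for erythroid cells were above 0 in MONW rats. In MONW-Lep rats it was 6, 1, 4, 2 and 0 in turn. The part of these cells in the counts was not tested.

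*Idi1* was the gene called in PBMC. Its values there were 6.94 to 7.61 (median 7.33) in NW, 6.83 to 7.65 (median 7.25) in MONW and 6.73 to 7.24 (median 7.02) in MONW-Lep arrays. Its mean fell below that of NW in MONW-Lep rats (log2 difference -0.28, 95% interval -0.52 to -0.03; unadjusted p = 0.0276 and adjusted p = 0.981 from limma; exact permutation p = 0.0132), with 2 of 9 MONW-Lep arrays below the lowest NW array, and it was above the negative controls on no PBMC array. Without NW replicate 3 or 4 or MONW-Lep replicate 1 or 10 the difference ran from -0.25 to -0.23 (unadjusted p from 0.0526 to 0.0656 from limma). In MONW rats the arrays of *Idi1* were spread more widely (SD 0.34, against 0.22 in NW and 0.18 in MONW-Lep rats), and MONW-Lep differed from MONW by -0.21 (95% interval -0.45 to 0.04). Hippocampal *Idi1* was at 7.36 to 7.99 (median 7.67) in NW, 7.43 to 8.02 (median 7.74) in MONW and 7.50 to 7.90 (median 7.66) in MONW-Lep arrays, with no difference between groups past the threshold. The other sterol enzymes of PBMC had values on both sides of NW in MONW-Lep rats, such as *Sqle* (-0.17; exact permutation p = 0.158) and *Tm7sf2* (0.14; exact permutation p = 0.101). *Tm7sf2* ran from 6.90 to 7.59 (median 7.27) in NW, 7.15 to 7.57 (median 7.39) in MONW and 7.26 to 7.65 (median 7.38) in MONW-Lep arrays, and *Lss*, at 6.66 to 6.94 (median 6.76) in NW, 6.45 to 6.88 (median 6.69) in MONW and 6.55 to 6.97 (median 6.75) in MONW-Lep arrays, was at -0.10 in MONW versus NW rats (exact permutation p = 0.13). All of these ranges overlapped, and *Sqle*, *Tm7sf2* and *Lss* too were above the negative controls on no PBMC array.

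Among fatty acid genes of PBMC, the smallest p values were those of MONW-Lep versus MONW rats. *Acly* was at 0.13 (95% interval -0.01 to 0.27; exact permutation p = 0.052), with all 9 MONW-Lep arrays inside the range of MONW. *Acaca*, at 6.87 to 7.40 (median 7.12) in NW, 6.78 to 7.20 (median 7.10) in MONW and 7.01 to 7.44 (median 7.21) in MONW-Lep arrays, was at 0.14 (95% interval -0.02 to 0.29), and 5 of 9 MONW-Lep arrays lay above the highest MONW array. By the exact permutation test *Acaca* had p = 0.0405, while limma gave an unadjusted p of 0.0853. The regulator *Insig2* was at 0.13 in the same comparison (exact permutation p = 0.0564). *Acaca* and *Insig2* were above the negative controls on no PBMC array, so their differences compare signals within background. The 18 exact tests within a tissue were run on the genes with the smallest p from limma in each comparison, so that their low p values, with *Idi1* and *Acaca* under 0.05, are a description of chosen genes.

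*Fads1* had the largest difference of MONW from NW in PBMC, 0.29 with a 95% interval of -0.16 to 0.73 (exact permutation p = 0.23), and the largest spread between rats. Platelets can remain in preparations of mononuclear cells, and their 6 markers in PBMC ran from 7.33 to 10.84 in mean log2 value, with means of 9.63 in NW, 10.04 in MONW and 9.55 in MONW-Lep rats. *Fads1* followed them (slope 0.36, standard error 0.06, adjusted p = 3.65e-05 from limma, groups kept as terms), as did *Msmo1* (slope 0.18, standard error 0.05, adjusted p = 0.0235 from limma), 2 of 31 genes in all (7.12% of all genes). With the platelet level as a term the difference of *Fads1* between MONW and NW rats was 0.14 (unadjusted p = 0.328 from limma). On the level of 5 monocyte markers a slope above 0 was called for 4 of 31 genes (7.52% of all genes), *Fdft1*, *Msmo1*, *Nsdhl* and *Ebp*, with *Msmo1* at 0.56 (adjusted p = 0.00828 from limma). On the B cell level, which rests on *Cd79b* and *Cd22* alone, it was called for *Scd* (slope 0.57, standard error 0.09, adjusted p = 0.000651 from limma) and *Acss2* (2 of 31, 1.22% of all genes). The myelin, platelet, monocyte and B cell levels were picked for these fits after the values had been seen. NW replicate 6, MONW replicate 7 and MONW-Lep replicates 5 and 8 had the lowest PBMC platelet levels (7.76, 7.83, 7.33 and 7.71). The other PBMC arrays stood at 9.21 or more. Their monocyte (9.67, 9.12, 9.28 and 9.42) and B cell levels (9.45, 9.18, 9.64 and 10.00) also lay below their group medians. The platelet, monocyte and B cell slopes share these low arrays, so they are not separate results. Apart from *Msmo1* on 1 NW array, the genes with a called slope in PBMC were above the negative controls on no PBMC array. Their slopes are those of signals within background.

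**Figure D4:**
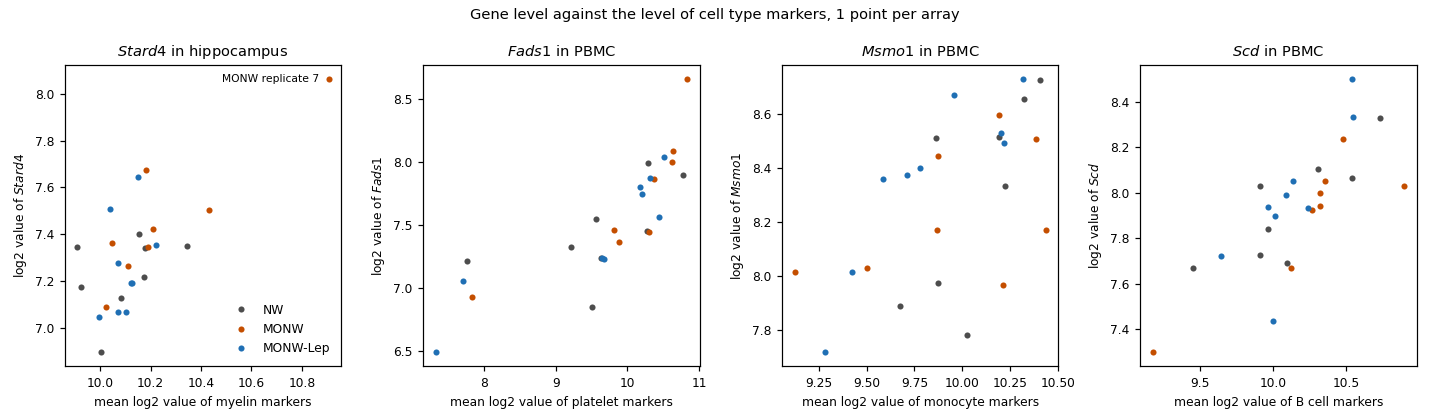
Log2 value of 4 genes against the mean log2 value of markers of a cell type on the same array (1 point per array, coloured by group). *Stard4* is highest in MONW replicate 7 of the hippocampus, which also has the highest myelin level, and in PBMC *Fads1* rises with platelet, *Msmo1* with monocyte and *Scd* with B cell markers. Apart from *Msmo1* on 1 NW array, the values shown of the 4 genes are not above the negative controls of their array.

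Whether the groups differed more in one tissue than in the other was tested as a difference of differences. For MONW versus NW it was called for 1 of 31 genes at an unadjusted p under 0.05 from limma (3.24% of all genes), *Stard4*, whose difference was 0.28 higher in the hippocampus (standard error 0.14, unadjusted p = 0.0467). For MONW-Lep versus NW it was called for 1 of 31 (3.29% of all genes), *Idi1*, 0.30 higher in the hippocampus (standard error 0.14, unadjusted p = 0.0468). For MONW-Lep versus MONW it was called for 2 of 31 (2.49% of all genes), *Stard4* (-0.28, unadjusted p = 0.0389) and *Acly* (-0.17, unadjusted p = 0.0355). The adjusted p from limma was at least 0.999 for each. *Stard4* was above the negative controls on no array of either tissue, and *Idi1* only on 1 MONW array of the hippocampus. The results of these genes compare signals within or near background. Without MONW replicate 7 of the hippocampus 0 were called in MONW versus NW and 0 in MONW-Lep versus MONW.

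The values of these genes spread less within groups than those of the typical gene. Of the 31 genes, 11 were above the negative controls on no hippocampal array and 8 on only some, and 27 on no PBMC array. Most of the spreads and correlations given here are thus those of signals within or near background. Those of the hippocampus include MONW replicate 7. The median SD within groups was 0.13 over the 31 genes and 0.18 over all genes in the hippocampus, and 0.19 and 0.22 in PBMC. In the hippocampus *Elovl6* (0.32), *Sc5d* (0.26) and *Stard4* (0.23) varied most and *Srebf2* (0.08) and *Acly* (0.08) least. In PBMC *Fads1* (0.47), *Elovl6* (0.39) and *Msmo1* (0.31) varied most and *Srebf1* (0.11) and *Mvk* (0.12) least. The genes rose and fell together only weakly from rat to rat: over the 465 pairs of genes the median correlation of the values within groups was 0.09 in the hippocampus and 0.08 in PBMC, over 25 arrays each, beside 0.00 for pairs of genes taken across the whole table. It was highest among the 5 regulators of the hippocampus (0.24 over 10 pairs) and among the 10 sterol enzymes of PBMC (0.17 over 45 pairs). All of these points share the arrays and their normalization.

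The remaining values of these genes showed the same overlap of the groups. PBMC levels of *Fdps* were 7.64 to 8.34 (median 8.08) in NW, 7.83 to 8.40 (median 8.14) in MONW and 7.93 to 8.33 (median 8.22) in MONW-Lep arrays. Those of *Mvk* were 7.29 to 7.83 (median 7.54) in NW, 7.39 to 7.64 (median 7.53) in MONW and 7.38 to 7.68 (median 7.58) in MONW-Lep arrays. *Srebf1* in PBMC was at 8.17 to 8.49 (median 8.30) in NW, 8.12 to 8.45 (median 8.28) in MONW and 8.08 to 8.45 (median 8.29) in MONW-Lep arrays. This regulator, above the negative controls on no PBMC array, had the smallest spread of the 31 genes there. *Acat2* in PBMC ran from 7.45 to 8.00 (median 7.75) in NW, 7.31 to 7.93 (median 7.68) in MONW and 7.50 to 8.01 (median 7.75) in MONW-Lep arrays. *Mvd* was at 6.89 to 7.13 (median 6.97) in NW, 6.91 to 7.36 (median 7.04) in MONW and 6.60 to 7.18 (median 7.05) in MONW-Lep arrays of the hippocampus and at 6.78 to 7.19 (median 6.97) in NW, 6.87 to 7.34 (median 7.05) in MONW and 6.84 to 7.25 (median 7.06) in MONW-Lep arrays of PBMC. The ranges of this decarboxylase overlapped between the tissues. *Nsdhl* was at 6.86 to 7.32 (median 7.13) in NW, 6.83 to 7.24 (median 7.17) in MONW and 6.99 to 7.20 (median 7.05) in MONW-Lep arrays of the hippocampus and at 6.34 to 6.93 (median 6.59) in NW, 6.46 to 6.93 (median 6.68) in MONW and 6.49 to 7.24 (median 6.72) in MONW-Lep arrays of PBMC. Hippocampal *Lss* was at 6.99 to 7.37 (median 7.24) in NW, 7.04 to 7.36 (median 7.30) in MONW and 7.01 to 7.36 (median 7.26) in MONW-Lep arrays. For both enzymes the groups overlapped within each tissue. Hippocampal *Tm7sf2* ran from 7.70 to 7.87 (median 7.78) in NW, 7.58 to 7.99 (median 7.82) in MONW and 7.57 to 8.12 (median 7.69) in MONW-Lep arrays. Hippocampal *Acaca* ran from 7.69 to 8.04 (median 7.91) in NW, 7.76 to 8.14 (median 7.97) in MONW and 7.74 to 8.23 (median 7.98) in MONW-Lep arrays, and no difference between its groups there was called.

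Of 60 related genes of sterol uptake and processing, sterol efflux and fatty acid handling, 51 were measured, 14, 11 and 26 in turn. In the hippocampus of MONW versus NW rats 3 of the 26 genes of fatty acid handling were higher at an unadjusted p under 0.05 from limma and 0 of the other 25 genes were called (3.08% of all genes were called in either direction). They were *Lpin1*, a phosphatidate phosphatase (0.15, unadjusted p = 0.0286 from limma), *Acsl1*, which activates fatty acids (0.14, unadjusted p = 0.0297 from limma), and *Slc25a1*, the mitochondrial carrier that supplies citrate to *Acly* (0.14, unadjusted p = 0.0418 from limma). *Lpin1* (-0.14, unadjusted p = 0.0404 from limma) and *Acsl1* (-0.13, unadjusted p = 0.0406 from limma) had lower means on MONW-Lep than on MONW arrays, and 0 of the 51 were called in MONW-Lep versus NW. Without MONW replicate 7, 0 of the 26 passed in MONW versus NW and 0 in MONW-Lep versus MONW. In PBMC of MONW-Lep versus NW rats *Mbtps2*, a protease that releases SREBP in the Golgi (-0.32, unadjusted p = 0.0143 from limma), and *Acsl4*, which activates arachidonic acid (-0.28, unadjusted p = 0.0184 from limma), were lower. Higher there were *Cyp39a1*, an oxysterol hydroxylase (0.38, unadjusted p = 0.00665 from limma), and the elongase *Elovl7* (0.40, unadjusted p = 0.0235 from limma), the other called gene being *Elovl3*, which the rule for related genes left out and which is named after its value was seen, and none of the 5 of 51 (4.75% of all genes) had an adjusted p under 0.981 from limma. The means in MONW-Lep rats were 4.09 for *Cyp39a1* and 4.37 for *Elovl7*, and those of all 5 genes lay below the negative control level of PBMC. In MONW versus NW rats 0 of the 51 were called in PBMC, and in MONW-Lep versus MONW rats 2 of 51 (2.45% of all genes), *Elovl4* (0.31, unadjusted p = 0.0491 from limma) and *Mcat* (0.17, unadjusted p = 0.048 from limma).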

How the data were processed

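RNA of the hippocampus and of PBMC was hybridised to Rat Clariom S arrays, 1 per rat and tissue, 50 in all. The authors deposited log2 values made with RMA (their processing notes name R 4.0.4, RMA and limma). The sources used here do not give their annotation version. Their table held 24871 clusters, of which 1683 were controls, and 15049 of the 23188 others had a gene symbol. All 31 measured genes had 1 cluster each. The deposited values were used as they stood, and no 2 arrays of a tissue held identical values.

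Groups were taken from the sample labels. Differences were tested with limma 3.58.1 (R 4.3.3, statmod 1.5.0), within each tissue over its 3 groups and, for differences between tissues, over all 6 groups of arrays, on the 15049 genes, with Benjamini-Hochberg adjustment over all of them. Single genes were also tested by an exact two-sided permutation test of the difference of means. Exact tests and limma measure the spread between these rats. Folds were written as at least a value where every PBMC array lay below the negative controls, with the higher of the gene's own value and the array's negative control level in the place of PBMC, and left out where both tissues lay below. Figures were drawn with Python 3.11.15, numpy 2.4.6 and matplotlib 3.10.9. The limma and permutation steps were tested on simulated data. The genes, the related and marker lists and the tests were chosen with earlier results of these data known.

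Values of every group were given for genes called at an unadjusted p under 0.05 within a tissue, for those with the smallest p in each comparison, and for those with the highest or lowest level or the largest difference between tissues. Related genes were named where called, at most those with the smallest p. Alternatives were array weights, repeated quantile normalization, leaving out dim clusters, all clusters, another variance model, only the groups compared, a marker level as covariate, the mean of clusters, blocks by replicate number or animal, and leaving out each replicate.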

Additional observations from a re-analysis of the deposited data

Results flagged for a closer look

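Of 186 sets of values of a gene in 1 group, 10 held an array far from the others of its group by Dixon's test (5.38%), and chance flags about 5%. MONW replicate 7 of the hippocampus, which stood apart over all genes, gave 3 of them, the highest value of *Fdps* (8.64) and the lowest of *Lss* (7.04) and *Nsdhl* (6.83). The others in the hippocampus were the highest MONW value of *Mvd* (7.36), the lowest MONW-Lep value of *Mvd* (6.60) and the lowest MONW value of *Scd* (7.31). In PBMC they were the lowest MONW values of *Acss2* (6.70) and *Acaca* (6.78) and the lowest MONW-Lep values of *Sqle* (6.23) and *Fasn* (7.65).

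The difference between groups was not the same in both tissues at an unadjusted p under 0.05 from limma for 3 genes. *Stard4* differed by 0.28 more in the hippocampus for MONW versus NW and by -0.28 for MONW-Lep versus MONW, *Idi1* by 0.30 for MONW-Lep versus NW, and *Acly* by -0.17 for MONW-Lep versus MONW. The adjusted p from limma was at least 0.999 in each case. For *Stard4* and *Idi1* these differences compare signals within or near background.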

How the results depend on the processing

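Counts of the 31 genes at an unadjusted p under 0.05 from limma moved with several settings. *Mvd*, not called between the tissues of NW rats, went from 0.02 to -0.15 on the log2 scale with quantile normalization over all arrays. For MONW versus NW in the hippocampus the count of 1 (*Stard4*) became 0 with array weights, 0 with the myelin level as a covariate and 0 without dim clusters, where *Stard4* was not tested, and ran from 0 to 1 when single replicates were left out (0 without NW replicate 3, 5, 6 or 7 or MONW replicate 3, 6 or 7). For MONW-Lep versus MONW there, 0 became 0 to 1 without single replicates (*Stard4*, without MONW replicate 1 or 8 or MONW-Lep replicate 5 or 10). For MONW-Lep versus NW in PBMC the count of 1 (*Idi1*) became 2 with repeated quantile normalization (*Idi1*, *Acly*) and 0 without dim clusters, where *Idi1* was not tested, and ran from 0 to 2 without single replicates (0 without NW replicate 3 or MONW-Lep replicate 1 or 10, 1 without NW replicate 4, where it was *Sqle* in place of *Idi1*, and 2 without NW replicate 6 or 7 or MONW-Lep replicate 2). For MONW-Lep versus MONW in PBMC, 0 became 1 with array weights (*Insig2*), 1 with repeated quantile normalization and 1 without dim clusters (*Acly*), and ran from 0 to 2 without single replicates (2 without MONW replicate 1 or 3, and 1 without MONW replicate 2 or 7 or MONW-Lep replicate 4). For differences between tissues, MONW versus NW gave 0 with array weights and 0 without MONW replicate 7, and MONW-Lep versus MONW gave 0 without that replicate. The counts of 0 for MONW-Lep versus NW in the hippocampus and MONW versus NW in PBMC stayed 0 under every alternative, and the 26 genes that differed between the tissues of NW rats became 25 to 27 without single replicates. The cause was not tested where none is named.

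The deviations of same-numbered arrays of different groups had r from -0.43 to 0.45 over 48 pairs within a tissue. Between 2 groups of a tissue, 2 to 6 of 8 such pairs had r above 0.1. Correlations spread this widely cannot decide whether the numbers pair rats across groups. With the replicate block 2 genes were called for MONW-Lep versus MONW in the hippocampus (*Hsd17b7*, *Stard4*) and 0 for MONW-Lep versus NW in PBMC. The same number in both tissues gave r from -0.09 to 0.14 over 25 pairs, and with the animal as a random block 26 genes differed between the tissues of NW rats. The filter on dim clusters kept 13 of the 31 genes in the hippocampus and 2 in PBMC, so signal over background limits most values in blood.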
